A study of Rattus norvegicus with 12 samples.

Results

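The 9 genes described here encode the core of transforming growth factor beta (TGF-beta) signalling: the ligands Tgfb1, Tgfb2 and Tgfb3, the receptors Tgfbr1, Tgfbr2 and Tgfbr3, and the intracellular mediators Smad2, Smad3 and Smad7. They were found by exact gene name among the 22442 gene records of an RNA-seq expression table, where 9 of 9 names matched and each was carried by 1 record. The table holds 12 libraries in 4 groups of 3, made from FLS, the fibroblast-like synoviocytes that line joints. FLS were grown from the synovium of male Sprague Dawley rats with adjuvant arthritis (AA), a joint inflammation induced with complete Freund's adjuvant, and were used at the third passage. The FCA group was kept in DMEM alone for 12 h, and the AT01, AT1 and AT10 groups received taurochenodeoxycholic acid (TCDCA), a taurine-conjugated bile acid, at 0.1, 1 and 10 µM for the same 12 h. All 4 groups, FCA included, came from AA rats, and cells of rats without arthritis were not analysed here. The study describes replicates 1 to 3 as repeats of the experiment without saying whether they came from separate animals or cultures, so the p-values measure only the spread between these libraries, which may be technical.

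TGF-beta ligands are secreted in a latent form that is held in the extracellular matrix until it is activated. The active ligand binds the type II receptor Tgfbr2, which recruits and phosphorylates the type I receptor Tgfbr1, and the coreceptor Tgfbr3 (betaglycan) presents ligand, Tgfb2 in particular. The type I receptor phosphorylates Smad2 and Smad3, which enter the nucleus with Smad4 and act on target genes, while the inhibitory Smad7 blocks the receptor and is itself a target of the pathway. In fibroblasts of the synovium TGF-beta is known for raising the output of matrix and of contractile proteins.

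The promoters of Smad3 and Tgfb3 are printed because these members had the largest differences from FCA. RefSeq promoter windows of 300 bases (build GRCr8) were found for 9 of 9 members, with 10 windows in all since Smad2 had 2. Capitals mark the GC box, GGGCGG or CCGCCC on the other strand, the letters that Sp1-type factors bind. The Smad3 window lies at chr8:73132275-73132574 on the minus strand, and the Tgfb3 window at chr6:111456897-111457196, also on the minus strand.
Smad3: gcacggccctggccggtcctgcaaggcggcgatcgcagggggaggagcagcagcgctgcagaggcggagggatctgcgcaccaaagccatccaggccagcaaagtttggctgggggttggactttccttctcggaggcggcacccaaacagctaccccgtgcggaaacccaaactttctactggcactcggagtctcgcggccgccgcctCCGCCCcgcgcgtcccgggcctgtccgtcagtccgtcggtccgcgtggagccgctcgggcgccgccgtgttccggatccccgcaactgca
Tgfb3: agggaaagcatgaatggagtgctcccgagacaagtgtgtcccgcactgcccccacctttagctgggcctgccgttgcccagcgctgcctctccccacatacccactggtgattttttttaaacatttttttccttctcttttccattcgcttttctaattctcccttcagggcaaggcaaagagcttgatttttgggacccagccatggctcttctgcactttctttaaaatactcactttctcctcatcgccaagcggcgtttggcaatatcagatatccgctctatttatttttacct
The Smad3 window held 1 GC box and was 69.7% G or C, and the Tgfb3 window held none and was 47.7% G or C. A GC box stood in 7 of the 10 member windows, namely those of the 3 SMADs and the 3 receptors and in none of the 3 ligands, against 33.1% of all 33469 promoters. The 2 Smad2 windows overlap, and the GC boxes of the first lie in the shared part, so that they are counted in both windows. The SMAD box, CAGAC or GTCTG on the other strand, stood in none of the 10 windows, against 50.1% of all promoters. No member window held the cAMP response element TGACGTCA (1.83% of all promoters), the AP-1 site TGANTCA (7.33%) or TATAAA (14.2%). The letters AGAACA or, on the other strand, TGTTCT, which form part of the glucocorticoid response element, occurred in 20.7% of all promoters and, among the members, in the Tgfb1 window. A match is a run of letters and not a shown binding site, and the absence of a match covers these windows alone.

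Expression was given as FPKM, a fragment number scaled to transcript length and library size, so that levels can be compared between genes. Library sums of FPKM lay between 284210 and 309696. The study gives the reads sequenced per library, but not the reads behind a single FPKM value, so the counting error of each value cannot be stated. Of the 10 FLS markers looked up, 9 had a record and all 9 had a mean above 10 FPKM, with Vim at 2660 and Col1a1 at 846 FPKM on average. Macrophage markers, 5 of 10 with a record, summed to between 1.8 and 3.08 FPKM, nearly all of it Cd68. Among the endothelial markers, 6 stayed at or below 0.12 FPKM, with Tie1 listed at 0 in all libraries, and only Egfl7 was higher, between 16.65 and 22.09 FPKM. Chondrocyte markers summed to between 3.11 and 8.16 FPKM. RNA was taken from whole cultures, so fewer cells of a type and less RNA per cell cannot be told apart.

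All 9 members were expressed, and no member differed from FCA at any TCDCA concentration after adjustment for the 11611 records tested. Smad3 stood out at 10 µM, where its 3 libraries were the lowest of the experiment, and it was the only member past the criterion of the study in a comparison with FCA. That criterion asks for an unadjusted p under 0.05 and for a difference of more than 1 on the log2 scale in either direction. The study applied it with Ballgown, and here it was applied with limma. With a Ballgown-like F test, no member passed it in AT10 against FCA. Tgfb3 was lowest at 0.1 µM and stood near the FCA level at 1 µM, and Tgfbr1 was highest at 10 µM. Tests were made with limma on log2(FPKM + 1) over the records that averaged 1 FPKM or more, so that fold changes of low genes are understated. The limma p-values were adjusted by Benjamini-Hochberg over all records, and an exact permutation test on log2(FPKM + 1), two-sided, was made for single members. With 3 libraries against 3 that exact test cannot go below p = 0.1.

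In untreated cells Tgfb1 was the most abundant member, at 70.5 ± 19.6 FPKM (SD, n = 3), followed by Tgfb3 at 49.4 ± 6.05 and Tgfbr2 at 28.2 ± 1.91. Smad7 (16.6 ± 0.360), Tgfbr3 (15.8 ± 4.57), Smad3 (13.5 ± 5.69) and Smad2 (9.75 ± 0.318) made up the middle of the order. Tgfbr1 at 4.82 ± 0.677 FPKM and Tgfb2 at 3.88 ± 0.325 FPKM were lowest. Neighbours in this order were separated by ranges that did not overlap for Tgfb1 and Tgfb3, Tgfb3 and Tgfbr2, Tgfbr2 and Smad7, and Smad2 and Tgfbr1, and the other neighbours overlapped. Over the 12 libraries, the mean of Tgfb1 stood at percentile 92.4 of the records tested and that of Tgfb2 at percentile 28.4.

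**Figure D1:**
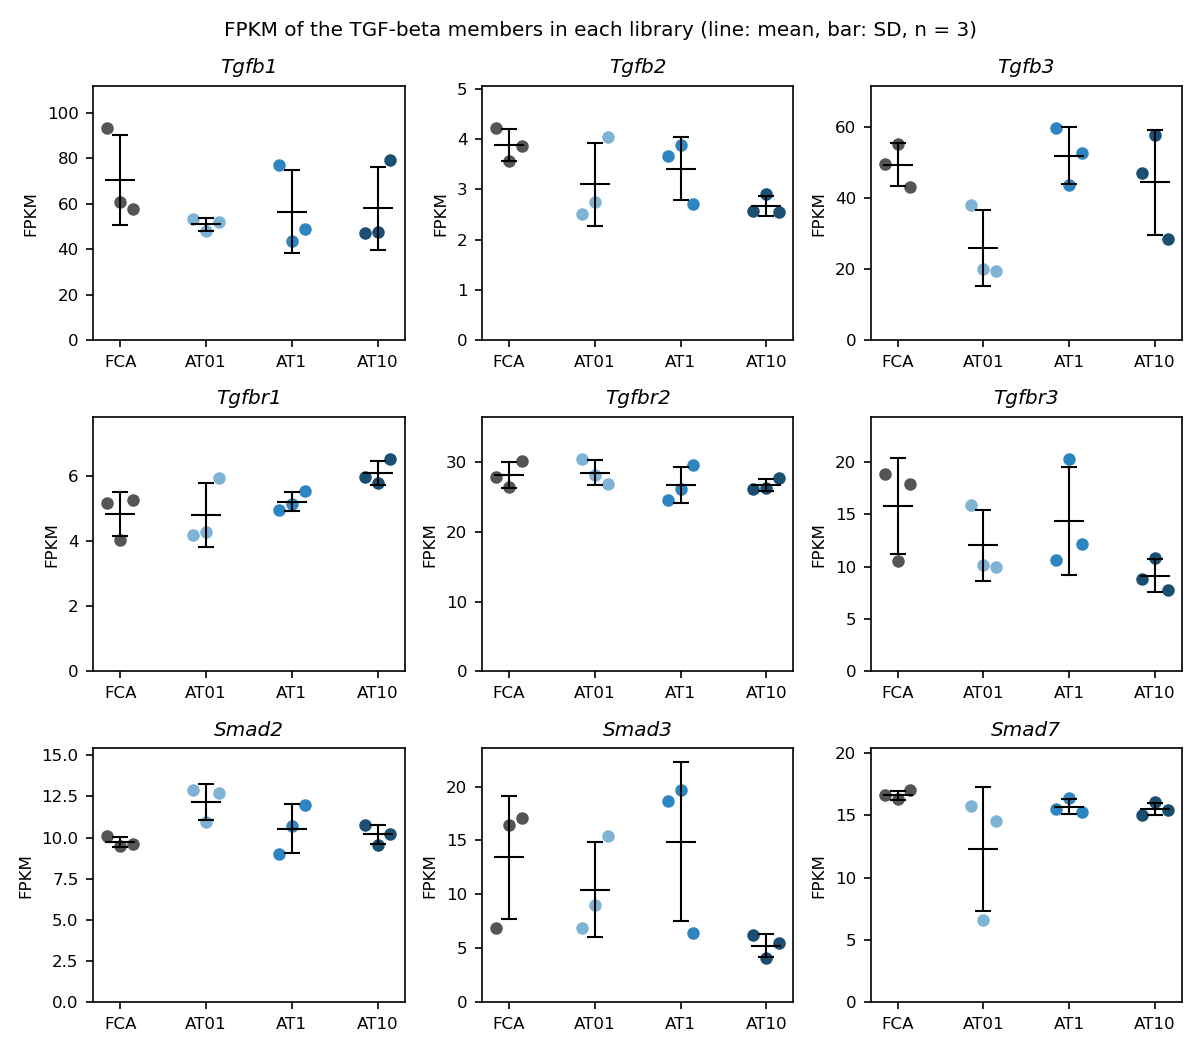
FPKM of each member (y axis, from 0) in the 3 libraries of FCA, AT01, AT1 and AT10 (x axis), with points for libraries 1 to 3 from left to right, a line for the mean and a bar for the SD. Smad3 in AT10 sits between 4.12 and 6.21 FPKM, below every other library, and Smad7 sits between 14.51 and 16.99 FPKM in all libraries but 1 of AT01, at 6.64.

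Tgfb1 encodes the ligand most widely made by cells. Its FPKM in the FCA libraries 1 to 3 was 93.16, 60.63 and 57.83, in AT01 it was 53.31, 47.99 and 51.82, in AT1 it was 77.27, 43.48 and 48.78, and in AT10 it was 47.17, 47.8 and 79.21. The 3 AT01 libraries lay below the 3 FCA libraries, while AT1 and AT10 each held 1 library within the FCA range and 2 libraries below it. The log2 fold change was -0.43 in AT01 (95% interval -0.90 to 0.05, limma adjusted p = 0.722), -0.33 in AT1 (adjusted p = 0.647) and -0.29 in AT10 (adjusted p = 0.684). The means of the 4 groups ran from 51.0 ± 2.74 FPKM in AT01 to 70.5 ± 19.6 FPKM in FCA (SD, n = 3), and no neighbours in that order were apart. Against FCA, 7 of the 9 TCDCA libraries were below every FCA library (exact permutation test of 9 against 3, p = 0.136).

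Tgfb2, the ligand that depends most on the coreceptor, was the least abundant member. FCA libraries gave 4.21, 3.56 and 3.87 FPKM, AT01 gave 2.51, 2.74 and 4.04, AT1 gave 3.66, 3.88 and 2.70, and AT10 gave 2.56, 2.90 and 2.55. All 3 AT10 libraries were below all 3 FCA libraries, and the other TCDCA groups overlapped with FCA. In AT10 the log2 fold change was -0.41 (SE 0.09, 95% interval -0.63 to -0.19), with a limma p of 0.00385 that became 0.187 after adjustment. The differences at 0.1 and 1 µM were -0.27 and -0.15 on the log2 scale (limma adjusted p = 0.783 and 0.643).

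Tgfb3 was the second ligand by level and had the widest range among the ligands, with a highest value 3.05 times the lowest. Its values were 49.8, 55.3 and 43.22 FPKM in FCA, 38.26, 20.26 and 19.57 in AT01, 59.73, 43.8 and 52.68 in AT1, and 47.04, 57.99 and 28.62 in AT10. The 3 AT01 libraries were below all FCA and all AT1 libraries, 1 AT10 library was also below FCA, and the remaining AT10 and all AT1 libraries were at or above the lowest FCA library. The log2 fold change against FCA was -0.96 in AT01 (SE 0.27, 95% interval -1.63 to -0.29), with a limma p of 0.0133 and an adjusted p of 0.684. It was 0.07 in AT1 and -0.20 in AT10 (limma adjusted p = 0.857 and 0.766). Without AT01 replicate 1, the highest of its group, the difference was -1.26 (limma adjusted p = 0.0729), and Tgfb3 then passed the criterion of the study. Between doses Tgfb3 was 1.03 higher in AT1 than in AT01 on the log2 scale (95% interval 0.33 to 1.73), which passed the criterion of the study with a limma p of 0.0117, and whose adjusted p was 1.0. That call was lost without AT1 replicate 1, AT01 replicate 2 or AT01 replicate 3, and with a Ballgown-like F test.

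Among the ligand transcripts, Tgfb1 and Tgfb3 made up nearly the whole. Summed over the 3 ligands, FCA libraries held between 104.92 and 147.17 FPKM and AT01 libraries between 70.99 and 94.08, so that these groups did not overlap. AT1 ranged from 91.16 to 140.66 FPKM and AT10 from 96.77 to 110.38 FPKM, both overlapping with FCA. The share of Tgfb3 in that sum was 40.4% ± 6.26 in FCA, 31.7% ± 7.86 in AT01, 47.0% ± 4.15 in AT1 and 42.6% ± 14.7 in AT10 (SD, n = 3). In AT10 replicate 3 the share of Tgfb1 reached 71.8%, the highest of the 12 libraries, while the other 2 AT10 libraries were at 44.0% and 48.7%. Tgfb2 contributed between 2.31% and 5.36% of the sum.

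**Figure D2:**
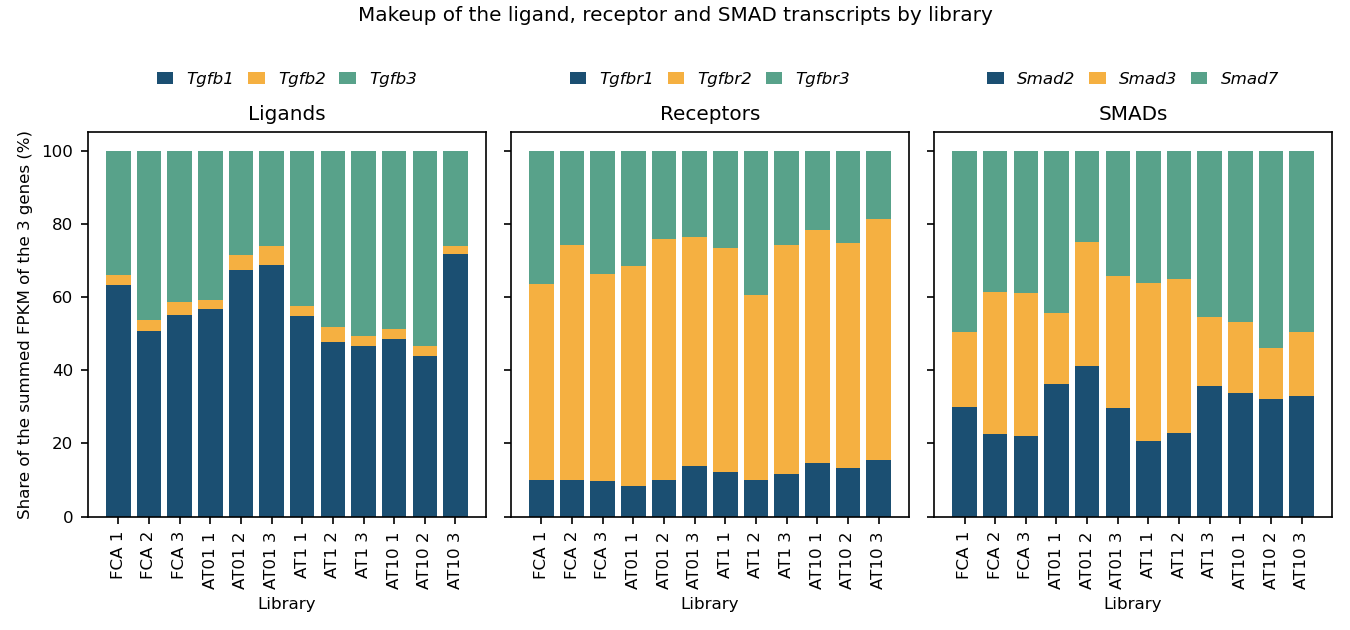
Share of each gene (y axis, % of the summed FPKM of its 3 genes) in each of the 12 libraries (x axis), for ligands, receptors and SMADs, with stacked bars that add to 100%. Smad3 holds between 13.8% and 19.4% of the SMAD bars in AT10, and between 19.1% and 43.2% elsewhere.

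Tgfbr1 encodes the type I receptor kinase, which phosphorylates Smad2 and Smad3. It gave 5.16, 4.04 and 5.26 FPKM in FCA, 4.19, 4.27 and 5.93 in AT01, 4.94, 5.14 and 5.53 in AT1, and 5.97, 5.77 and 6.50 in AT10. The 3 AT10 libraries were above all libraries of FCA and AT1 and overlapped with AT01. The log2 fold change in AT10 against FCA was 0.29 (SE 0.11, 95% interval 0.02 to 0.56), with a limma p of 0.0404 and an adjusted p of 0.401. In AT1 it was 0.10 and in AT01 -0.01 (limma adjusted p = 0.716 and 0.992).

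Tgfbr2, the type II receptor that binds the ligand first, was the steadiest member. FCA libraries held 27.84, 26.41 and 30.2 FPKM, AT01 libraries 30.38, 28.11 and 26.91, AT1 libraries 24.52, 26.21 and 29.59, and AT10 libraries 26.12, 26.35 and 27.66. All groups overlapped, and the highest value was 1.24 times the lowest. The 95% interval of the difference from FCA ran from -0.19 to 0.22 in AT01, from -0.30 to 0.16 in AT1 and from -0.24 to 0.10 in AT10 on the log2 scale (limma adjusted p = 0.974, 0.756 and 0.688).

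Tgfbr3 encodes betaglycan, the coreceptor. Its values were 18.89, 10.53 and 17.93 FPKM in FCA, 15.91, 10.18 and 10.01 in AT01, 10.67, 20.24 and 12.18 in AT1, and 8.82, 10.83 and 7.75 in AT10. FCA replicate 2 lay with the low libraries, so that AT10 overlapped with FCA although 2 of its 3 libraries were below every FCA library. In AT10 the log2 fold change was -0.70 (SE 0.24, 95% interval -1.30 to -0.10), with a limma p of 0.0294 and an adjusted p of 0.370. At 0.1 and 1 µM it was -0.35 and -0.14 (limma adjusted p = 0.819 and 0.872). Among the receptor transcripts Tgfbr1 made up between 9.85% and 9.94% in FCA and between 13.4% and 15.5% in AT10. It made up 8.3% to 13.8% in AT01, overlapping with both, and 9.96% to 12.3% in AT1. A share also moves with the other genes of the sum, and that of Tgfbr3 averaged 31.9% in FCA and 21.8% in AT10. Tgfbr2 held between 50.8% and 66.0% of the receptor sum over the 12 libraries, and Tgfbr3 between 18.5% and 39.2%.

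Smad2 and Smad3 are the SMADs that the TGF-beta receptors activate. Smad2 gave 10.11, 9.52 and 9.61 FPKM in FCA, 12.87, 10.93 and 12.71 in AT01, 8.98, 10.68 and 11.99 in AT1, and 10.78, 9.58 and 10.22 in AT10. The 3 AT01 libraries were above all FCA libraries and all AT10 libraries, while AT1 and AT10 overlapped with FCA. In AT01 the log2 fold change was 0.29 (SE 0.09, 95% interval 0.07 to 0.51), with a limma p of 0.0168 and an adjusted p of 0.696. At 1 and 10 µM it was 0.10 and 0.06 (limma adjusted p = 0.724 and 0.736).

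Smad3 had the widest range of the 9 members, with a highest value 4.77 times the lowest. FCA libraries held 6.89, 16.39 and 17.08 FPKM, AT01 libraries 6.91, 9.02 and 15.37, AT1 libraries 18.64, 19.64 and 6.42, and AT10 libraries 6.21, 4.12 and 5.46. The AT10 libraries were the 3 lowest of the 12, but FCA replicate 1, AT1 replicate 3 and AT01 replicate 1 lay only just above them, so that low values occurred in every group. Against FCA the log2 fold change in AT10 was -1.13 (SE 0.35, 95% interval -2.002 to -0.25), with a limma p of 0.0202, an adjusted p of 0.323 and an exact permutation p of 0.1. That passed the criterion of the study but not the adjusted threshold. With FCA replicate 1 left out, the difference was -1.52 (limma adjusted p = 0.0870), and with FCA replicate 2, FCA replicate 3, AT10 replicate 2 or AT10 replicate 3 left out, or with a Ballgown-like F test in place of limma, no member passed the criterion. In AT01 and AT1 the log2 fold change was -0.31 and 0.09, with 95% intervals from -1.35 to 0.72 and from -1.21 to 1.40 (limma adjusted p = 0.871 and 0.956). Between doses Smad3 was lower in AT10 than in AT1, with a log2 fold change of -1.22 (95% interval -2.28 to -0.16), which passed the criterion of the study with a limma p of 0.0306 and an adjusted p of 0.748. The call between AT10 and AT1 was lost when any library of AT10, or replicate 1 or 2 of AT1, was left out, and with the Ballgown-like F test.

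Smad7, the inhibitory SMAD, was close to constant except in a single library. It gave 16.6, 16.27 and 16.99 FPKM in FCA, 15.76, 6.64 and 14.51 in AT01, 15.5, 16.35 and 15.24 in AT1, and 15.03, 16.05 and 15.42 in AT10. All libraries of AT01 and AT10 were below the lowest FCA library, in AT10 by little, and AT1 overlapped with FCA. The log2 fold change in AT10 was -0.095 (95% interval -0.24 to 0.05, limma adjusted p = 0.541) and in AT1 -0.078 (adjusted p = 0.601). In AT01 it was -0.49 (95% interval -1.25 to 0.27, limma adjusted p = 0.795), and without AT01 replicate 2 it was -0.13.

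**Figure D3:**
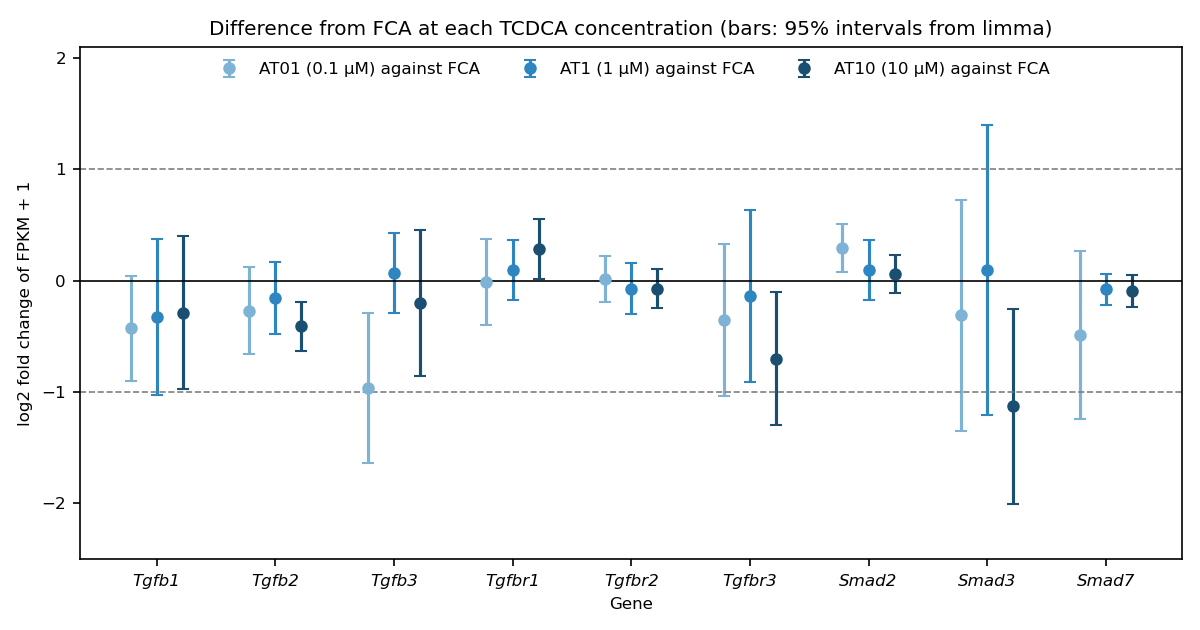
Log2 fold change of FPKM + 1 against FCA (y axis) for each member (x axis) at 0.1, 1 and 10 µM TCDCA, with bars for 95% intervals from limma and dashed lines at -1 and 1. The point for Smad3 at 10 µM, at -1.13, is the only one beyond a dashed line, and its interval reaches from -2.002 to -0.25.

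Counted over the members, AT10 against FCA had 1 of 9 past the criterion of the study, against 0.706% of all records tested (82 of 11611). After adjustment 0 of 9 passed in AT10, where limma called 0.172% of all records, and 4 of 9 had an unadjusted p under 0.05 against a background of 11.9%. Those 4 were Tgfb2, Tgfbr3 and Smad3 below FCA and Tgfbr1 above it. The values of AT10 and FCA did not overlap for 4 of 9 members (19.9% of all records), and 7 of 9 log2 fold changes were below 0 (51.7% of all records). The median of the members was -0.20, beside -0.0085 over all records. In the same comparison 8 of the 9 FLS markers were also below FCA, with a median of -0.27, and their summed FPKM was between 3145 and 4479 in AT10 and between 4115 and 4693 in FCA. The part of that difference in the values of the members was not tested.

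At 1 µM, 0 of 9 members reached the criterion of the study, an adjusted limma p under 0.05 or an unadjusted p under 0.05, against backgrounds of 0.62%, 0.0947% and 11%. No member was without overlap between AT1 and FCA, where 19.9% of all records were, and 5 of 9 were below 0 (46.7% of all records). The median was -0.07 for the members and 0.02 for all records.

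At 0.1 µM, 0 of 9 members passed the criterion (0.758% of all records) and 0 of 9 the adjusted limma p (0.0947%). An unadjusted p under 0.05 was reached by 2 of 9, Tgfb3 and Smad2, against 6.6% of all records. Tgfb1, Tgfb3, Smad2 and Smad7, 4 of 9, did not overlap with FCA (14% of all records), and 7 of 9 were below 0 (49.6%). The median was -0.31 for the members and 0.0017 for all records. The 3 comparisons share the FCA libraries, so that a high or low FCA value moves all of them.

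With the 9 TCDCA libraries as 1 group, 0 of 9 members passed the criterion (0.491% of all records) or the adjusted limma p (0.0258%). Only Tgfb2 reached an unadjusted p under 0.05 in limma, at 0.0478 with an adjusted p of 0.410 and a log2 fold change of -0.28, against 12% of all records. No member was without overlap (2.86% of all records), and 7 of 9 were below 0 (49.3%). Smad7 was below every FCA library in 8 of 9 TCDCA libraries (exact permutation p = 0.259), and Smad2 was above every FCA library in 7 of 9 (exact permutation p = 0.159). The smallest p that this exact test allows is 0.00455.

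Between doses, AT10 against AT1 had 1 of 9 members past the criterion, Smad3, against 0.594% of all records, 0 past the adjusted limma p (0.258%) and 2 without overlap (13.9%), namely Smad3 and Tgfbr1. AT10 against AT01 had 0 past the criterion (0.672%), 0 past the adjusted limma p (0.0689%) and 2 without overlap (11.1%), Smad2 and Smad3, both lower in AT10. AT1 against AT01 had 1 past the criterion, Tgfb3 (0.568%), 0 past the adjusted limma p (0.129%) and 1 without overlap (8.6%), again Tgfb3. In 1 limma F test among the 4 groups, Tgfb3 was the only member with an unadjusted p under 0.05 (F = 5.23, limma adjusted p = 0.527), against 8.57% of all records. No member passed that test after adjustment (0.0431% of all records), the adjusted p of the members lying between 0.527 and 0.845.

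The members differed in how much the libraries of a group varied. The SD within groups on the log2 scale was 0.61 for Smad3, at percentile 92.3 of the records tested, and 0.09 for Tgfbr2, at percentile 16.5, beside a median of 0.17 over all records. Tgfb3, Tgfbr3 and Tgfb1 also varied more than most records, at percentiles 83.9, 82.9 and 81.4. Records whose 12 libraries fell into 2 separate levels made up 4.52% of those tested, and 0 of the 9 members were among them. The levels of such a record were parted by 1 or more in log2(FPKM + 1), exceeding the spread within each level, and each level held 2 or more libraries. Smad3 also had a gap, too narrow for this definition, with no library between 9.02 and 15.37 FPKM. Libraries of FCA, AT01 and AT1 lay on both sides of it, and all AT10 libraries on the lower side.

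For each member the records with the most similar profile over the 12 libraries were looked up by Pearson's r of log2(FPKM + 1). This is a description without a test, since libraries of a group share their treatment. Each r is also among the 2 highest over all named records averaging 1 FPKM or more, so high values can arise by selection alone. Tgfb3 was most like Adam19 (r = 0.91, n = 12), which encodes a membrane metalloprotease, and like Mnt (r = 0.90). Without AT01 replicates 2 and 3, the libraries farthest from its median, these became 0.70 and 0.59. Tgfbr3 was most like Map1a (r = 0.93) and Pebp1 (r = 0.90), and Tgfbr1 most like Zranb2 (r = 0.92) and a record named SNORD2 (r = 0.90). For Smad3 the likest records were LOC100912427 (r = 0.87), listed at 0 in part of the libraries, and the ribosomal protein gene Rpl39 (r = 0.86). Smad7 reached r = 0.97 with Pithd1 and Ddi2, but without AT01 replicate 2 and FCA replicate 3, the libraries farthest from the median of Smad7, r was 0.032 and 0.38. Tgfb1 was most like Cnnm4 (r = 0.85) and Cnot11 (r = 0.84), Tgfb2 like Leng8 (r = 0.85) and Mrpl16 (r = 0.83), Tgfbr2 like Tada1 and Hk2 (r = 0.89 for both), and Smad2 like Armcx3 (r = 0.87) and Wwc2 (r = 0.83). Leaving out the 2 libraries farthest from the median of the member gave r = 0.68 and 0.54 for Smad2, and 0.69 and 0.635 for Tgfb1. For Tgfb2, Tgfbr1, Tgfbr2, Tgfbr3 and Smad3 it then lay between 0.81 and 0.95. These pairs were picked on the same libraries, so the values do not show that a likeness lasts. No member was among the 2 likest records of another member.

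Around the members, 5 lists of other genes of the pathway held 72 genes, of which 60 had a mean of at least 1 FPKM. None of the 60 passed the criterion of the study or the adjusted limma p at any concentration. An unadjusted p under 0.05 was reached by 6 of 60 at 10 µM, by 8 of 60 at 1 µM and by 11 of 60 at 0.1 µM, and most of these were below FCA (4, 6 and 9). Over all records these shares were 11.9%, 11% and 6.6%, and 504 of 1379, 632 of 1278 and 468 of 766 such records were below FCA. The median log2 fold change of the 60 was -0.11 at 10 µM, 0.0093 at 1 µM and -0.04 at 0.1 µM.

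Of the 10 latency and activation genes tested, 7 were below 0 in AT10, 5 in AT1 and 8 in AT01, beside 51.7%, 46.7% and 49.6% of all records. The most abundant were Thbs1, an activator of latent TGF-beta, at 1770 FPKM over the 12 libraries, and the integrin subunit Itgb1 at 301 FPKM. In AT01 the latent TGF-beta binding proteins Ltbp1 and Ltbp3 had log2 fold changes of -0.27 and -0.31 (limma adjusted p = 0.609 and 0.696). Among 9 other receptors of the superfamily, the coreceptor Eng stood at 23.3 ± 1.45 FPKM in FCA and between 19.1 and 20.0 on average in the TCDCA groups, without a limma adjusted p under 0.05 at any concentration. Acvr1, a type I receptor of the BMP branch, stood at 19.2 ± 0.714 FPKM in FCA, 16.6 ± 1.22 in AT01, 19.7 ± 0.726 in AT1 and 17.8 ± 1.32 in AT10 (SD, n = 3), also without one.

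The 5 other SMADs were all below 0 in AT10, beside 51.7% of all records. Their median was -0.24, though Smad5 was at -0.0018 and Smad4 at -0.0221. In AT1 and AT01, 2 of the 5 were below 0 (46.7% and 49.6% of all records), with medians of 0.0232 and 0.0561. Smad1, which carries BMP signals, gave 16.97, 17.52 and 18.33 FPKM in FCA, 8.65, 10.13 and 10.48 in AT10, 17.76, 18.35 and 16.16 in AT1, and 17.84, 17.38 and 10.12 in AT01. All AT10 libraries were below all FCA and AT1 libraries, and 1 AT01 library lay at the AT10 level. The log2 fold change in AT10 was -0.79 (SE 0.09), and its limma adjusted p of 0.0608 was the closest to the threshold among the 60 genes. Smad5, also of the BMP branch, stayed between 7.69 and 8.87 FPKM.

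Among the 14 SMAD partners and regulators tested, 9 were above 0 and 5 below 0 in AT10, where 51.7% of all records were below 0. Fkbp1a, which binds the type I receptor, stood at 119 ± 3.65 FPKM in FCA, 109 ± 2.89 in AT01, 102 ± 8.68 in AT1 and 110 ± 2.97 in AT10 (SD, n = 3). Pmepa1, a feedback inhibitor, stood at 33.5 ± 2.41, 30.2 ± 2.71, 27.5 ± 0.661 and 31.9 ± 4.6 FPKM in the same order. Neither had a limma adjusted p under 0.05 at any concentration (0.428 and 0.420 in AT1). The corepressor Skil, chosen after its values were seen, had log2 fold changes of 0.41 in AT10, 0.25 in AT1 and 0.25 in AT01 (limma adjusted p = 0.309, 0.492 and 0.720).

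Of the 22 target genes tested, 17 were below 0 in AT10, 14 in AT1 and 15 in AT01, beside 51.7%, 46.7% and 49.6% of all records. Their medians were -0.20, -0.07 and -0.10. Among the FLS markers, which share Col1a1 with this list, 8 of 9 were also below 0 in AT10, with a median of -0.27. Fn1, which encodes fibronectin, gave 1462, 1508 and 1532 FPKM in FCA and 1255, 1329 and 1154 in AT10, without overlap, and its log2 fold change was -0.27 (limma adjusted p = 0.242). Ctgf, a matricellular target chosen after its values were seen, held 703.83, 755.68 and 623.55 FPKM in FCA and 190.01, 716.87 and 141.59 in AT10. AT10 replicate 2 thus lay at the FCA level and the other 2 AT10 libraries far below it. Without AT10 replicate 2 the log2 fold change of Ctgf was -2.07 (limma adjusted p = 0.0485), against -1.36 with it.

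**Figure D4:**
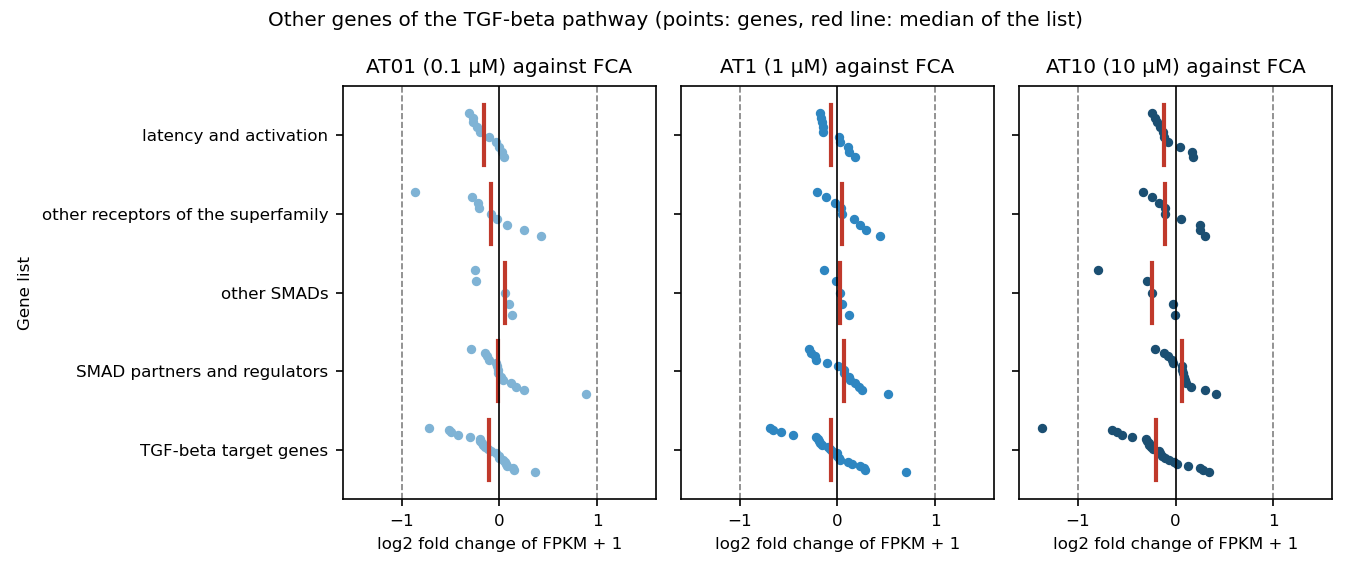
Log2 fold change of FPKM + 1 against FCA (x axis) for the genes of 5 pathway lists (y axis) at 0.1, 1 and 10 µM TCDCA, with a point for each gene, a red line at the median of each list and dashed lines at -1 and 1. The leftmost point at 10 µM is Ctgf at -1.36, and the medians of the target genes are -0.10, -0.07 and -0.20.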

How the data were processed

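Poly(A) RNA of 12 FLS libraries was sequenced in pairs of reads. The authors aligned reads with HISAT2, assembled transcripts with StringTie, and deposited FPKM per gene record, estimated with StringTie and Ballgown. The submitters' processing notes also name cutadapt and edgeR, without a role. The genome build is not given in the sources used here, so no coordinates of the records are printed. FPKM was used as deposited, with no scaling between libraries.

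The 11611 records averaging 1 FPKM or more were tested as log2(FPKM + 1) with limma 3.58.1 in R 4.3.3 (lmFit, eBayes with a trend), for each pair of groups separately, for 9 TCDCA libraries against 3 FCA libraries, and 1 F test over all 12. P-values were adjusted by Benjamini-Hochberg over all records. The pipeline was tested on simulated data. Groups came from the labels. The members and gene lists were chosen with earlier results of these data known. Named were all members, the 2 most abundant genes of each list, any listed gene called against FCA, and the 2 likest records of each member. A gene of the target list that this rule names is not reported here. Genes outside this rule were chosen after their values were seen, as were Ltbp1 and Ltbp3. As alternatives, the pseudocount was set to 0.1, the filter was dropped or raised to a mean of 10 FPKM, FPKM was summed over records sharing a name, libraries were scaled by median ratios, the 12 libraries were fitted at once, a Ballgown-like F test replaced limma, the replicate number was blocked, and single libraries were left out. The Ballgown-like F test fitted each gene alone, with a term for library size. Promoters came from RefSeq (GRCr8). Tables were made with Python 3.11.15, NumPy 2.4.6 and pandas 2.3.3, and figures with Matplotlib 3.10.9.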

Additional observations from a re-analysis of the deposited data

Results flagged for a closer look

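Smad7 in AT01 replicate 2 lay apart from the other TCDCA libraries. It was at 6.64 FPKM, and the other 8 of the 9 TCDCA libraries were between 14.51 and 16.35 FPKM, so that the gap took 0.811 of the whole range. Cd68, a macrophage marker at low level in these cultures, was highest in AT10 replicate 1, at 2.91 FPKM with the next library at 2.29, a gap of 0.496 of the range, just over the critical value of 0.493. At this critical value chance alone flags about 1 in 20 genes, and of the 27 genes examined 2 were flagged. No cause was tested for either value.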

How the results depend on the processing

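Under 20 alternative settings, 12 of which left out 1 library, 21 of 710 values of single members changed sign. None crossed the adjusted threshold, and the other 689 counted as the same. The 710 include the adjusted p of the F test among the 4 groups, which has no direction. Some settings, such as another filter or the replicate block, cannot change a fold change. The 689 therefore do not measure how stable the directions are. Of 332 counts, 307 stayed within 1.5 times and 25 moved. A Ballgown-like F test gave 0 members past the criterion of the study in AT10 against FCA, AT10 against AT1 and AT1 against AT01, where limma gave 1 in each, and the 1 fit over all 12 libraries gave 1 other pathway gene in AT10 against FCA, Ctgf, where the main fit gave 0. With 1 library left out, members past the criterion ranged from 0 to 1 in AT10 against FCA, AT01 against FCA, AT10 against AT1 and AT1 against AT01, and from 0 to 2 in AT10 against AT01. The other pathway genes ranged from 0 to 1 by the criterion in AT10 and AT01 against FCA and from 0 to 1 by adjusted p in AT10 against FCA. Tgfb3 passed in AT01 against FCA without FCA replicate 3 or AT01 replicate 1, Tgfb3 passed in AT10 against AT01 without AT10 replicate 3, and Tgfb3 and Smad3 without AT01 replicate 1. The call of Tgfb3 in AT1 against AT01 was lost without AT1 replicate 1, AT01 replicate 2 or AT01 replicate 3. The other pathway gene was Ctgf without AT10 replicate 2, Bhlhe40 without FCA replicate 3, Acvr1b without AT01 replicate 1 and Smurf2 without AT01 replicate 3.

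The signs that turned were of small differences, apart from Smad3. The Ballgown-like F test added a term for library size to the model, and that term is what changed the fold changes there. Under it, the log2 fold change in AT1 against FCA was -0.631 for Smad3, 0.0637 for Tgfb1 and -0.017 for Tgfbr1. In AT01 against FCA it was 0.0025 for Tgfbr1 and -0.0204 for Tgfbr2. With 1 library left out, the range in AT1 against FCA was -0.2967 to 0.5727 for Smad3, -0.0336 to 0.1858 for Tgfb3, -0.0026 to 0.1538 for Tgfbr1 and -0.3955 to 0.0365 for Tgfbr3. In AT01 against FCA it was -0.1474 to 0.0612 for Tgfbr1 and -0.0303 to 0.066 for Tgfbr2, in AT10 against FCA -0.4122 to 0.0848 for Tgfb3, and for Tgfbr2 over all TCDCA libraries -0.0858 to 0.0076. Why single libraries differed was not tested. Over these settings Smad3 in AT10 ranged from -1.52 to -0.92 on the log2 scale, with adjusted p from 0.0870 to 0.604. At a mean of at least 10 FPKM, Tgfb2 and Tgfbr1 were not tested.

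The deviations from the group means gave no sign that replicate numbers pair the libraries, which does not exclude a pairing. Over 18 same-numbered pairs their correlation ran from -0.105 to 0.0942, and 0 pairs exceeded 0.1. The mean was -0.00162 for the same number and 0.000811 for different numbers, and 3 of 12 libraries correlated best with their own number. With the replicate block, AT10 against FCA still had 1 member past the criterion, Smad3 (unadjusted p = 0.046 and adjusted p = 0.466 in limma), and 0 past the adjusted p, and no count of members or other pathway genes moved by over 1.5 times. Over all records, however, the block took the adjusted calls from 20 to 1 in AT10, from 11 to 0 in AT1 and from 11 to 2 in AT01 against FCA, from 30 to 1 in AT10 against AT1, from 8 to 0 in AT10 against AT01, from 15 to 2 in AT1 against AT01 and from 3 to 1 for all TCDCA libraries against FCA. With 3 libraries a group, the block also leaves less information on the spread, and its part in this loss was not tested. The reads behind a single FPKM value are not known, so the counting error of low members such as Tgfb2 could not be given.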
